A study of Mus musculus with 4 samples.

Results

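The kinesin motor superfamily was read from 75 probes whose gene name on the array begins with Kif followed by a number or the letter c, or with Klc followed by a number. These probes belong to 38 gene names, of 41174 probes and 27670 gene names on the array. The members were chosen by name alone, but the large rise of Kif21b had drawn attention to the family, so its values are a description and carry no test. The study hybridised total RNA of 4T1-A and 4T1-S to one-colour Agilent expression arrays, 2 arrays for each. Both are sub-lines of 4T1, a line from a mouse mammary carcinoma, and the title calls 4T1-S strongly immunogenic. The labels give no treatment, time or allele for either sub-line, and do not say how the sub-lines were obtained or whether its 2 arrays hold RNA of independent cultures. The p-values therefore describe the spread among these 4 arrays alone, and that spread may be technical.

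Kinesins are ATP-driven motors that walk along microtubules or shorten their ends. Mitotic kinesins build the spindle, move chromosomes and complete cytokinesis, and their transcripts rise in dividing cells. Transport kinesins carry vesicles, mitochondria and RNA outward, many through light chains that hold the cargo, and several are best known from neurons. Members were sorted into these roles from lists of textbook function: 11 mitotic kinesins, 15 transport kinesins, 3 light chains, 8 other kinesins that act in cilia or at microtubule ends or whose role is less settled, and the pseudogene Kifc5c.

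Between 54.9 and 59.3 percent of the 43379 spots other than controls were well above background on each array. All 4 arrays lay on 1 slide, with 4T1-A and 4T1-S at adjoining positions, so slide position and sub-line cannot be told apart. The epithelial keratins Krt8 and Krt18 were bright on all arrays and differed by -0.19 ± 0.18 and -0.14 ± 0.25 (log2, SE, n = 2 arrays per sub-line), while 4 of 6 epithelial markers were lower in 4T1-S, Epcam by the most (-3.78 ± 0.21, limma adjusted p = 5.66e-05). Of 4 endothelial markers 3 were not above background on any array, as were the leukocyte markers Adgre1 and Itgam. The summed level of 6 neuronal markers, in multiples of the array's 75th percentile, was 2.80 and 3.39 in 4T1-A, against 3.48 and 4.86 in 4T1-S, most of it from Syn1. Snap25, Syt1 and Nefl were not above background on any array, and Map2 was lower in 4T1-S (-1.77 ± 0.19, limma adjusted p = 0.00152). Map2 was above background on 3 of 4 arrays and was tested through its level in 4T1-A alone, so this p-value is a description. Fibroblast markers summed to 0.484 and 0.725 in 4T1-A and to 1.10 and 1.12 in 4T1-S, with 1 of 3 tested members, Col1a1, higher. Col1a1 was not well above background in 4T1-A and was tested through its level in 4T1-S alone. Pdgfrb and Lum were not above background on any array. The part of these markers in the results on kinesins was not tested. In a bulk sample, fewer cells of a type and less RNA per cell cannot be told apart.

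Of the kinesins, Kif21b was far higher and Kif5c lower in 4T1-S, and the other 34 tested did not pass the threshold. Levels are the processed intensity of a probe divided by the 75th percentile of its array, and each difference is a log2 value, positive where 4T1-S was higher. Each gene was read from the probe with the highest mean. Of the 38 genes, 36 were tested because that probe was well above background in 4T1-A, in 4T1-S or in each of them, on both arrays, and 35 were above background on all 4 arrays. The exceptions were the axonal motor Kif1a and Kif2b, a depolymerising kinesin, for which no probe was above background on any array. Limma called 1 of the 36 higher and 1 lower at an adjusted p under 0.05, against 3.95 percent of all 16172 genes tested called higher and 3.01 percent lower, and 6.96 percent in either direction. These are 639 genes higher and 487 lower, and scaling to the median turned the split to 189 and 887, with a shift of the median of all genes from 0.13 to -0.16. At an unadjusted p under 0.05, 8 kinesins were higher and 2 lower, beside 20.5 percent of all genes higher and 8.2 percent lower. The arrays of the sub-lines did not overlap for 14 members higher and 7 lower in 4T1-S, that is 38.9 and 19.4 percent of the members, beside 40.6 and 18.5 percent of all genes, or 59.1 percent in either direction. These shares, and those at an unadjusted p, lie close to those of all genes. The median difference of the tested members was 0.16, and that of all genes was 0.13.

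**Figure D1:**
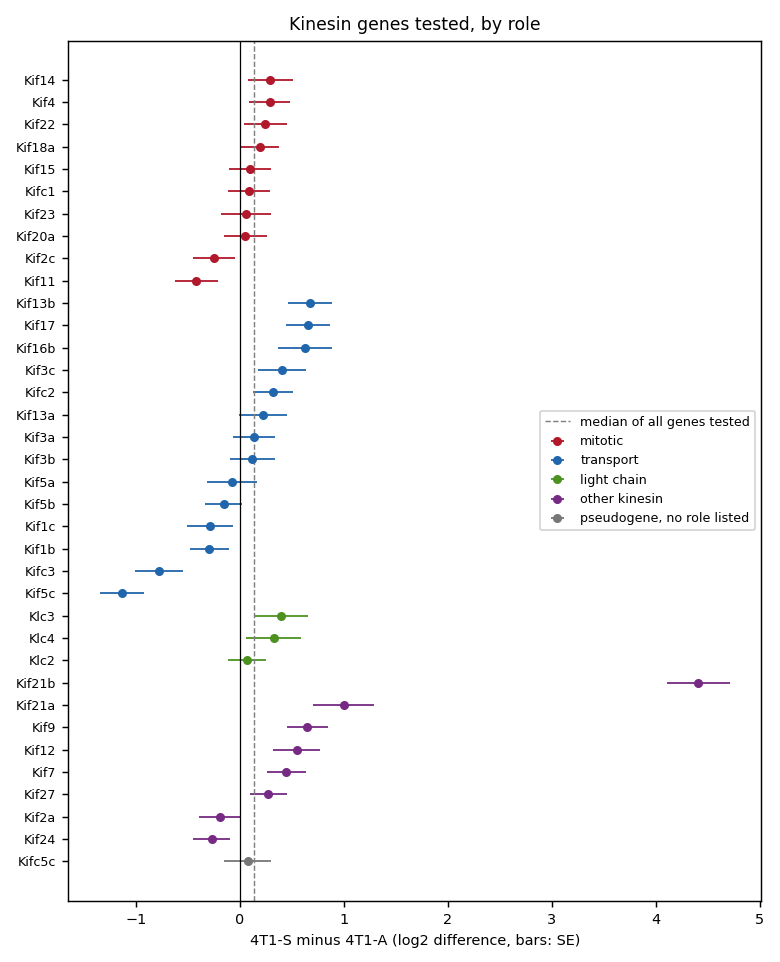
Difference between 4T1-S and 4T1-A (x axis, log2, positive is higher in 4T1-S) for the 36 kinesin genes tested, 1 probe per gene, coloured by role. Bars are standard errors moderated by limma over all genes, with n = 2 arrays per sub-line, and the dashed line is the median of all genes tested (0.13). Mitotic kinesins lie between -0.42 and 0.29, and Kif21b stands at 4.41.

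Kif21b encodes a plus-end-directed kinesin known from neurons and lymphocytes that also acts on the growth of microtubule ends. Its brightest probe, A_52_P282500, read 0.329 and 0.582 times the 75th percentile on the 4T1-A arrays, and 7.83 and 11.1 times on the 4T1-S arrays. Both 4T1-S arrays lay far above both 4T1-A arrays. The difference was 4.41 ± 0.30 (log2, SE, n = 2 arrays per sub-line), or 21.3-fold. A second probe, A_52_P614303, read 0.0372 and 0.0667 in 4T1-A, where it was above background on 1 of 2 arrays, and 0.548 and 0.685 in 4T1-S, a measured difference of 3.62. The third probe, A_52_P355222, did not rise well above background anywhere (0.0582 and 0.0440 in 4T1-A, against 0.0574 and 0.0685 in 4T1-S). So 2 of the 3 probes of Kif21b showed the rise, and the third had no measurable signal in either sub-line.

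The difference of Kif21b ranged from 4.00 to 4.82 when each array was left out in turn. It was 2.78 with the mean of its 3 probes. Genes next to Kif21b on chromosome 1 did not share its size of difference. Of the 6 nearest protein-coding genes on the array, 3 on each side in the RefSeq gene order of GRCm38.p6, 4 were tested, and their differences ran from 0.03 for Camsap2, a microtubule minus-end binding protein, to 0.42 for Inava. Limma called 0 of the 4, and 0 had an unadjusted p under 0.05. Cacna1s and Igfn1, the remaining neighbours, were not above background on any array.

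Kif21a, the closest relative of Kif21b, read 0.124 and 0.217 in 4T1-A, against 0.285 and 0.379 in 4T1-S from its brightest probe. The sub-lines did not overlap, but the difference of 0.998 ± 0.292 did not pass (limma adjusted p = 0.0785, 95% interval 0.32 to 1.68). A second probe above background on all arrays gave 0.59. Kif21a passed without 4T1-A replicate 2, at 1.40 (limma adjusted p = 1.69e-04).

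**Figure D2:**
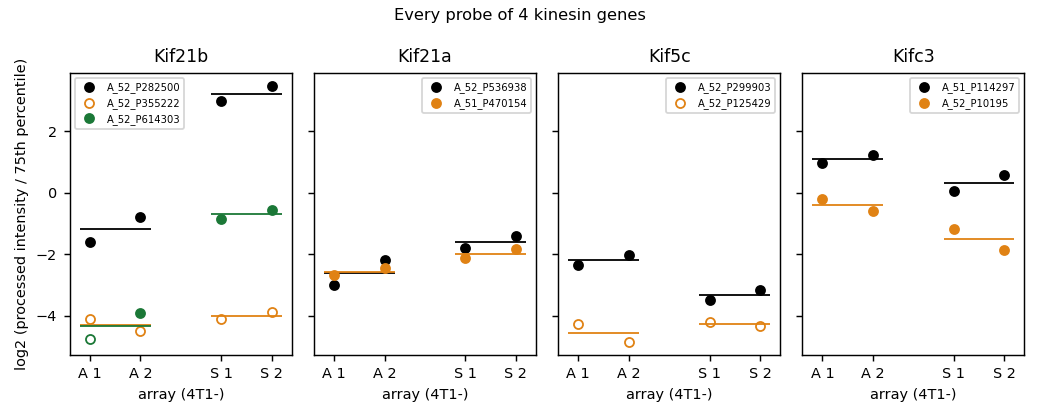
Level of every probe of Kif21b, Kif21a, Kif5c and Kifc3 on each array (y axis, log2 of the processed intensity over the array's 75th percentile), with horizontal lines at the mean of each sub-line. Filled points are well above background on that array and open points are not. The brightest Kif21b probe moves from a mean of -1.19 in 4T1-A to 3.22 in 4T1-S, while its dimmest probe stays unfilled on all arrays.

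Mitotic kinesins were at similar levels in both sub-lines, and none of the 10 tested moved past the threshold. Differences ran from -0.42 ± 0.21 for Kif11, the tetrameric motor that pushes spindle poles apart, to 0.29 ± 0.21 for Kif14, a kinesin of the midbody. Limma called 0 of the 10, beside 6.96 percent of all genes. At an unadjusted p under 0.05 there were 0, beside 20.5 percent of all genes higher and 8.2 percent lower. With the main scaling and the brightest probe of each gene, the 95% intervals of all 10 lay between -0.90 and 0.79. Each then left out a 2-fold change in either direction. Kif11 differed by -0.71 with scaling to the median and by 0.38 with the mean of its probes, and passed with neither. Whether a 2-fold change is left out under those settings was not tested. The median difference of the 10 was 0.09, with a median size of 0.22, beside 0.13 and 0.31 over all genes. With scaling to the median of all probes the median of the mitotic kinesins was -0.20 and that of all genes -0.16, so its sign depends on the scaling.

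Kif22, a chromokinesin that binds DNA and pushes chromosome arms to the spindle equator, read 54.8 and 63.5 times the 75th percentile in 4T1-A, against 61.5 and 79.2 times in 4T1-S. The sub-lines overlapped, and the difference was 0.24 ± 0.21 (95% interval -0.24 to 0.73). Kif20a, which carries the chromosomal passenger complex to the central spindle, read 37.6 and 32.2 in 4T1-A, against 40.5 and 32.2 in 4T1-S, a difference of 0.05 ± 0.21. For Kif20a both replicate 1 arrays read above both replicate 2 arrays. Kif11 read 2.84 and 3.37 in 4T1-A, against 2.07 and 2.58 in 4T1-S, so both 4T1-S arrays were lower, but the difference did not pass (limma adjusted p = 0.222). A second probe above background on all arrays differed by 0.48, with the opposite sign, and the third was above background on 1 array, in 4T1-S. The depolymerase Kif2c, which frees wrongly attached chromosomes, differed by -0.25 ± 0.20, and the chromokinesin Kif4 by 0.29 ± 0.20. Kif23 (0.05 ± 0.24), a motor of the central spindle in cytokinesis, Kif15 (0.10 ± 0.20), a spindle motor, and Kif18a (0.19 ± 0.18), which damps chromosome movement, lay in the same range. Kifc1, a minus-end-directed motor that clusters spindle poles, differed by 0.09 ± 0.20, but its probes are assigned through their RefSeq accession to Kifc5b, a near-identical copy, and the copies cannot be told apart here.

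Of 24 tested genes of the mitotic spindle and cytokinesis, limma called 0 in either direction, against 6.96 percent of all genes. The median difference was -0.03, against 0.13 over all genes. At an unadjusted p under 0.05, 1 was higher and 2 were lower, beside 20.5 and 8.2 percent of all genes. The kinetochore kinesin Cenpe, whose name the selection does not match, differed by -0.18 ± 0.19. The proliferation marker Mki67 differed by -0.13 ± 0.19, and the brightest gene of the list, Cdc20, an activator of the anaphase-promoting complex, by 0.32 ± 0.18. Differences over 0.5 in size were measured for 2 of the 24, the mitotic kinase Cdk1 (-0.71 ± 0.25, 95% interval -1.28 to -0.14) and the spindle checkpoint gene Mad2l1 (-0.52 ± 0.19), and neither passed (limma adjusted p = 0.110 and 0.128).

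Promoters of mitotic kinesins are shown because these genes are known to be transcribed together in the cell cycle. The cell cycle homology region, written TTTGAA, and the CCAAT box, written CCAAT, were searched on both strands from 250 bases before to 30 bases after the annotated start. The match was to RefSeq promoters of GRCm38.p6, which held 29 of the 38 members. Of 10 mitotic kinesins with a promoter there, 7 held TTTGAA and 7 held CCAAT, and 5 held both (Kif4, Kif11, Kif14, Kif22 and Kif23). Of 10 transport kinesins 1 held TTTGAA, 3 held CCAAT and 0 both. Of all 27025 genes with a promoter, 19.5 percent held TTTGAA, 39.7 percent CCAAT and 7.37 percent both. Matches are shared letters and not shown binding sites. The windows of 3 mitotic kinesins that hold both motifs follow, with the motif letters of either strand in capitals, then that of Kif5c, the transport kinesin called lower, which holds neither.
Kif11, chr19:37376132-37376411, plus strand: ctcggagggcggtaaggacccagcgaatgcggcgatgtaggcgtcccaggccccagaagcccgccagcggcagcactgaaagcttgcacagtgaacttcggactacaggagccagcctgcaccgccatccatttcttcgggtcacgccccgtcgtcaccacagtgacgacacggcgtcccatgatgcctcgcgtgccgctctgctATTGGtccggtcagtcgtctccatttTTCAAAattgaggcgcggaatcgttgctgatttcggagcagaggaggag
Kif22, chr7:127042391-127042670, minus strand: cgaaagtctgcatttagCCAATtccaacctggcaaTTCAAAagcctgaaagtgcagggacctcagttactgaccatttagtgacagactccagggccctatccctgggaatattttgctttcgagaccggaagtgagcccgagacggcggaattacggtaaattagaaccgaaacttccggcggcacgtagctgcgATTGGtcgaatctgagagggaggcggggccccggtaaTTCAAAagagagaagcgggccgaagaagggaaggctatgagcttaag
Kif23, chr9:61946770-61947049, minus strand: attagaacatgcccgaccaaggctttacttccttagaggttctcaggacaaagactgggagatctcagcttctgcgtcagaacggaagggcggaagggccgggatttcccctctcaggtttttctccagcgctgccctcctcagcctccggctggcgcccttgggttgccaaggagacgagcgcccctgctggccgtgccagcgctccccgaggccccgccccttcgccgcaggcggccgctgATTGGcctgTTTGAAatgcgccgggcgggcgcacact
Kif5c, chr2:49619036-49619315, plus strand: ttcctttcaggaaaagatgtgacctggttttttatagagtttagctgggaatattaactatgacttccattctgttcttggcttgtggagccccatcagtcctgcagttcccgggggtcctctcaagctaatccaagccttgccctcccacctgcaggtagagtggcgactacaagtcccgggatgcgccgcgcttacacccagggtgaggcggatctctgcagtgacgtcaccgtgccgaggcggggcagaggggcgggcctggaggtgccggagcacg

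Transport kinesins spread more widely than mitotic ones. Of 14 tested, 1 was called lower and 0 higher, and 3 were higher and 2 lower at an unadjusted p under 0.05, beside the 20.5 and 8.2 percent of all genes. Kif17, 1 of the 3 higher, was tested through its level in 4T1-S alone, so its p-value is a description. Differences over 0.5 in size were measured for 5 of the 14 (35.7 percent), Kif17 among them, for 0 of the 10 mitotic kinesins and for 28.4 percent of all genes. Transport kinesins were also dimmer, with array medians from -0.59 to -0.38 (log2), against 1.29 to 1.69 for mitotic kinesins. Their replicates lay further apart, with median gaps of 0.29 in 4T1-A and 0.37 in 4T1-S, against 0.23 and 0.33 for mitotic kinesins. The difference between the roles was not tested. The median difference was 0.13, or 0.22 when Kif21a, Kif21b and the light chains were counted as transport kinesins, and -0.16 with scaling to the median.

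Kif5c is one of the heavy chains of conventional kinesin, and is known mainly from neurons. It read 0.194 and 0.245 in 4T1-A, against 0.0892 and 0.111 in 4T1-S. Both 4T1-S arrays were lower, and Kif5c fell by 1.14 ± 0.21 (2.20-fold, limma adjusted p = 0.0236). A second probe was not above background on any array. Leaving out 4T1-S replicate 1 or 4T1-S replicate 2 ended the call (limma adjusted p = 0.141 and 0.0944), as did normexp background correction at -0.43, the mean of its probes at -0.43 and the lack of a filter on background. Of the 6 nearest protein-coding genes on the array, 3 were tested, with differences from 0.23 for Mmadhc to 0.58 for Epc2, and limma called 0 of them, with 1 at an unadjusted p under 0.05.

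The other heavy chains did not follow Kif5c past the threshold. Kif5b, the ubiquitous chain, read 19.2 and 19.4 in 4T1-A, against 17.9 and 16.7 in 4T1-S, a small shift with no overlap (-0.16 ± 0.18, 95% interval -0.58 to 0.26). Kif5a, a neuronal chain, differed by -0.08 ± 0.24. The light chains, which bind cargo to these heavy chains, numbered 3 and all were tested. Klc2 read 0.518 and 0.508 in 4T1-A, against 0.538 and 0.535 in 4T1-S, a difference of 0.07 ± 0.18. Klc3 read 3.46 and 5.36 in 4T1-A, against 4.91 and 6.55 in 4T1-S, with overlap between the sub-lines (0.39 ± 0.26), and Klc4 differed by 0.32 ± 0.27. Limma called 0 of the light chains, with 0 at an unadjusted p under 0.05.

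Kifc3, a minus-end-directed motor linked to apical transport and to adherens junctions in epithelial cells, read 1.96 and 2.35 in 4T1-A, against 1.05 and 1.48 in 4T1-S. Both 4T1-S arrays were lower, but the difference of -0.78 ± 0.23 did not pass (limma adjusted p = 0.0783, 95% interval -1.31 to -0.25). Its second probe, above background on all arrays, gave -1.11. Kifc3 passed with the mean of its probes, at -0.95 (limma adjusted p = 0.0234), and with scaling to the median, at -1.07 (0.0497). Of the epithelial markers given above, 4 of 6 were lower in 4T1-S, and Krt8 and Krt18 did not pass. A link between these markers and Kifc3 was not tested.

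Among the motors of vesicles and organelles, Kif1c read 4.96 and 4.19 in 4T1-A, against 4.38 and 3.18 in 4T1-S (-0.29 ± 0.22), with overlap. Kif1b, a carrier of mitochondria and synaptic vesicle precursors, differed by -0.30 ± 0.19. The endosomal motor Kif16b (0.62 ± 0.26) and Kif13b (0.67 ± 0.21), a carrier of membrane proteins, had both 4T1-S arrays above both 4T1-A arrays and did not pass (limma adjusted p = 0.164 and 0.0951). Without 4T1-A replicate 2 their differences were 0.878 and 0.845. Kif17, a motor of dendrites and cilia, was not well above background in 4T1-A and read higher in 4T1-S by at least 1.44-fold, where the higher of the array's lowest measurable signal and the probe's own signal stands in for the 4T1-A level. Kif17 did not pass (limma adjusted p = 0.102), and was tested through its level in 4T1-S alone, so this p-value is a description. Of the heterotrimeric kinesin that carries cargo along cilia and axons, Kif3a (0.13 ± 0.20), Kif3b (0.12 ± 0.22) and Kif3c (0.40 ± 0.23) did not pass, nor did Kif13a (0.22 ± 0.24) and Kifc2 (0.32 ± 0.19).

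Of the 8 other kinesins tested, 6 had both 4T1-S arrays above both 4T1-A arrays (beside 40.6 percent of all genes), and 5 were higher and 0 lower at an unadjusted p under 0.05 (beside 20.5 and 8.2 percent of all genes). Kif21b is 1 of each count, and none of the other 7 passed the adjusted threshold. They included the ciliary kinesins Kif7 (0.44 ± 0.19), a regulator of Hedgehog signalling, and Kif9 (0.65 ± 0.20), and also Kif12 (0.54 ± 0.23) and Kif27 (0.27 ± 0.18). Kif9, Kif12 and Kif27 were well above background on all arrays but dim, with 4T1-A means of -3.71, -3.85 and -3.09 (log2). The lowest measurable signal of an array lay between -4.36 and -4.07, and was higher on both 4T1-S arrays. How far low signal or the scaling bears on these counts was not tested. Kif2a, a depolymerase of microtubule ends, read 3.55 and 3.27 in 4T1-A, against 2.66 and 3.32 in 4T1-S (-0.20 ± 0.20). Kif24, a kinesin of centrioles, differed by -0.27 ± 0.18. The pseudogene Kifc5c differed by 0.07 ± 0.23.

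**Figure D3:**
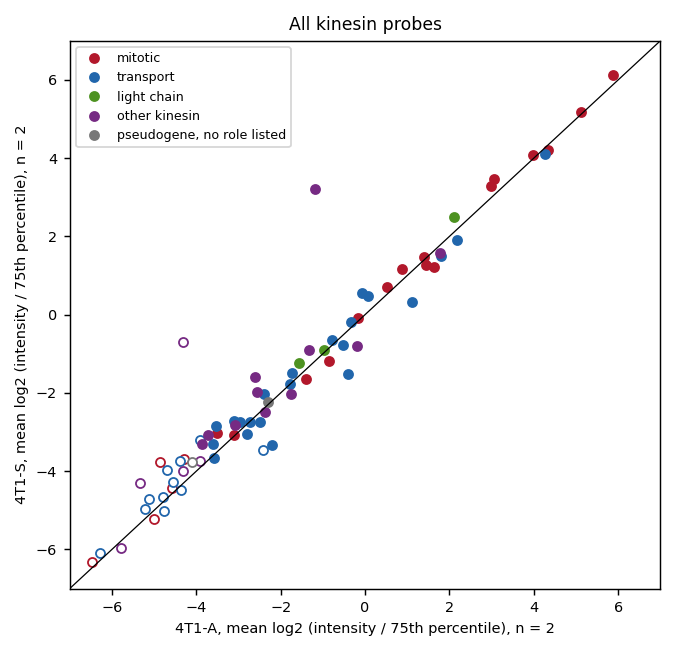
Mean level of each of the 75 kinesin probes in 4T1-A (x axis) and 4T1-S (y axis), both log2 of the processed intensity over the 75th percentile with n = 2 arrays, coloured by role, with the line of equal level. Filled points are well above background on all 4 arrays (53 probes) and open points are not. The Kif21b probes with differences of 4.41 and 3.62, stand far above the line.

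Probes of a gene did not always have the same sign. Of the 75 probes, 53 were above background on all 4 arrays, 10 on some and 12 on none. For the 16 genes with more than 1 probe above background on all arrays, 10 had probes of the same sign and 6 had probes of both signs. The median spread between their probes was 0.29, and the widest was 0.91, for Kif11. The other genes of both signs were Kif4, Kif13a, Kif1b, Kif20a and Kif23.

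Genes that work with the motors changed in few places. Of 20 tested kinesin partners and cargo adaptors, 0 rose, 2 fell and 18 did not pass, with a median of 0.09. Over all genes 3.95 percent were called higher and 3.01 percent lower, with a median of 0.13. Sybu, or syntabulin, an adaptor that links Kif5 motors to cargo, fell by at least 1.96-fold, to a signal not well above background in 4T1-S (limma adjusted p = 0.00438). Sybu was tested through its level in 4T1-A alone, so this p-value is a description. Map7, a microtubule protein that recruits kinesin-1, fell by 1.26 ± 0.21 (limma adjusted p = 0.0137). The call of Map7 was lost without 4T1-S replicate 1 (0.109) or 4T1-S replicate 2 (0.0843). Normexp ended the call of Sybu, at -0.34 (0.152). Kifap3, the subunit that joins the Kif3 motors to cargo, differed by 0.03 ± 0.19.

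Tubulins, the track on which kinesins walk, had 4 of 16 tested members fallen, 0 risen and 12 not passed, with a median of -0.19. Of all genes, 3.01 percent were called lower and 3.95 percent higher, with a median of 0.13. Tubb2b fell by 2.24 ± 0.29 (limma adjusted p = 0.00441), and Tubg2, a gamma-tubulin, fell by 1.15 ± 0.19 (limma adjusted p = 0.0131). Tubb2a and Tuba8 also passed as lower. Tuba8 was not well above background in 4T1-S and was tested through its level in 4T1-A alone. The p-values of Tuba8 are therefore a description, and so is its place among the 4 fallen. With normexp Tubb2b (-0.99, limma adjusted p = 0.0709), Tubg2 (-0.43, 0.105) and Tuba8 (-0.03, 0.890) did not pass. Tubb2a did not pass with the mean of its probes (-0.67, limma adjusted p = 0.0981), nor Tuba8 with every probe fitted (0.0643). Tubb2a and Tubb2b are near-identical, and the array may not tell them apart. The calls of Tubg2, Tubb2a and Tuba8 were lost without 4T1-S replicate 1 (limma adjusted p = 0.0636, 0.124 and 0.128) or 4T1-S replicate 2 (0.119, 0.151 and 0.200), and those of Tubb2a and Tuba8 also without 4T1-A replicate 1 (0.103 and 0.135).

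Dynein, the motor that walks the other way, and the intraflagellar transport particles that ciliary kinesins carry had no calls. Over all genes limma called 6.96 percent, the median was 0.13, and 20.5 percent were higher and 8.2 percent lower at an unadjusted p under 0.05. Of 24 tested genes of cytoplasmic dynein and dynactin limma called 0, with a median of -0.07. At an unadjusted p under 0.05, 0 of them were higher and 2 lower. The brightest, the light chain Dynll1, differed by 0.11 ± 0.18. Of 16 tested genes of intraflagellar transport limma called 0, with a median of -0.14 and with 1 higher and 3 lower at an unadjusted p under 0.05. The brightest, Ift46, a subunit of those particles, differed by -0.03 ± 0.19.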

How the data were processed

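The values are spot intensity readings that the authors extracted with Agilent Feature Extraction 9.1, per the submitters' processing notes. Per the file headers the processed intensity is background-subtracted and detrended and not scaled between arrays. The authors' deposited value matrix is a linear ratio, processed intensity over the 75th percentile of the array, as a comparison of the values showed. Control spots were left out, as were spots with an outlier flag (5 to 9 per array). The array's 75th percentile was subtracted from the log2 of the processed intensity, and the spots of a probe were averaged. Of the 41174 probes, 22951 were named through RefSeq accessions and 9768 through symbols of GRCm38.p6. The remaining 8455 matched neither and kept their name on the array. The probe with the highest mean stood for its gene, which was tested if both 4T1-A arrays, both 4T1-S arrays or all of them showed it well above background. 4T1-S was compared with 4T1-A by limma 3.58.1 (lmFit and eBayes, 2-sided) in R 4.3.3 (files were read with the package data.table, version 1.17.8), over 16172 genes, with Benjamini-Hochberg adjustment and a threshold of 0.05. The procedure was tested on simulated data. Standard errors and intervals are limma's moderated values, which combine the spread of a gene (2 residual degrees of freedom) with that of all genes (5.71 prior degrees of freedom). The number of arrays limits the precision.

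The members, roles and lists were chosen with earlier results of these data known. Genes named with array values are members that passed, differed by at least 1, had probes of opposite sign at least 1 apart, or were the 2 brightest of a role. Of each other list, up to 2 risen and 2 fallen genes or the brightest were named. Kif21a and Kifc3 were given array values, and Cenpe, Mki67, Cdk1, Mad2l1, Kifap3, Tubb2a and Tuba8 were named, outside this rule, after their values were seen. Coordinates are those of the RefSeq promoters, since no build is named for the arrays. Alternatives were other scalings, normexp, other filters on background, the mean of a gene's probes, every probe as a row, outlier spots kept, an intensity trend with robust fitting, the deposited matrix, each array left out and a replicate block.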

Additional observations from a re-analysis of the deposited data

How the results depend on the processing

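The count of all genes called, 1126, was 743 with quantile normalization, 475 with normexp, 271 with no filter on background, 610 with the filter on all 4 arrays, and between 304 and 2404 without 1 array (2404 without 4T1-A replicate 2, 390 when 4T1-S replicate 1 was left out, and 304 when 4T1-S replicate 2 was). The split of higher and lower calls was 269 and 474 with quantile normalization, 249 and 531 with cyclic loess and 214 and 261 with normexp. Kinesins called higher numbered 1, and between 1 and 4 without 1 array, with 4 without 4T1-A replicate 2. Kinesins called lower numbered 1, against 2 with scaling to the median, 0 with normexp, 0 with no filter on background and 0 to 1 without 1 array. With no filter on background the calls of Map7, Sybu and the 4 tubulins were lost. Genes of the other lists called numbered 6, against 11 with scaling to the median, 2 with normexp, 0 with no filter on background and 2 to 7 without 1 array. The cause was not tested. The median difference of mitotic kinesins moved from 0.09 to -0.20 with scaling to the median. That of transport kinesins moved from 0.13 to -0.16 with scaling to the median, 0.0239 with cyclic loess, 0.22 with Kif21a, Kif21b and the light chains, and lay between 0.0409 and 0.16 without 1 array.

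The sub-lines share only replicate numbers in the labels, so pairing was not assumed. Deviations from the group means correlated at 0.42 between arrays of the same number. With the replicate number as a block, 3686 of 16172 genes were called, 2520 higher and 1166 lower. Of the 36 tested kinesins, 7 were called higher and 2 lower. Among genes of the other lists, 14 were called. The kinesins that passed beside Kif21b and Kif5c were Kif9, Kif12, Kif13b, Kif16b, Kif17 and Kif21a (higher, limma adjusted p = 0.00967 for Kif21a) and Kifc3 (lower, 0.0172). Of these, Kif17 was tested through its level in 4T1-S alone. Kif21b was higher in 4T1-S under every alternative run, by 2.78 to 4.82.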

Other observations

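Further kinesin genes carry older names on the array and were not among the members. Kif26b, a kinesin that binds microtubules without walking and is known from kidney development, was not well above background in 4T1-A. It read higher in 4T1-S by at least 2.46-fold (limma adjusted p = 0.0203). Kif26b was tested through its level in 4T1-S alone, so this p-value is a description. Klc1, the light chain listed as Kns2, differed by 0.55 ± 0.19 (limma adjusted p = 0.108). The mitotic kinesins Kif20b, listed as Mphosph1, and Kif18b, listed under a clone name, differed by -0.48 ± 0.19 (limma adjusted p = 0.147) and -0.22 ± 0.19 (limma adjusted p = 0.484).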
